A study of Mus musculus with 16 samples.

Results

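The genes described here are 38 mouse genes of the ATF4 programme, of serine synthesis and of one-carbon metabolism, measured by RNA-seq in TCF1+CD8+ T cells. They were chosen by gene symbol, with earlier results of these data known, and all 38 were found among the 54532 genes of the count table, of which 28205 had a count in at least 1 sample. By role they are 5 transcription factors, 6 feedback and stress effectors, 3 enzymes of serine synthesis, 6 genes of the one-carbon cycle, 6 other amino acid enzymes, and 11 tRNA synthetases with the tRNA exporter Xpot.

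ATF4 is a transcription factor whose protein is made when the initiation factor eIF2 is phosphorylated, as happens in cells short of amino acids or under stress in the endoplasmic reticulum. It switches on genes that make, import and load amino acids onto tRNA. Serine feeds the folate cycle, which hands single carbon units to purine and thymidylate synthesis. Activated T cells are known to draw on this route as they prepare to divide, and mTORC1 is known to raise ATF4 in growing cells.

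The RNA came from splenic naive CD8 T cells of C57BL/6J mice that had been activated repeatedly over 4 days in culture, which keeps TCF1, the factor of stem-like T cells. All cells were then held for 1 h at 37 °C without PGE2 or with PGE2 at 100 ng per ml, and for 4 h more in IL-2 at 85 U per ml. This second period was with IL-2 alone (unstimulated) or with IL-2 and anti-CD3/CD28 beads at 1 bead per cell (stimulated), so every sample received IL-2 and the unstimulated untreated cells were not resting. The 4 groups were unstimulated untreated, unstimulated with PGE2, stimulated untreated and stimulated with PGE2, each with replicates 1 to 4. As a model they are limited to cells expanded in culture and to a single time point and PGE2 dose.

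Summed counts per sample ran from 22678254 to 42950763, and the 38 genes together took 0.355% to 0.719% of them. All 8 markers of CD8 T cells were expressed in every group, with a summed level of 3342 to 5477 CPM (counts scaled by library size), while B cell, myeloid, CD4 T cell and erythroid marker lists summed to at most 21.0, 6.56, 10.2 and 0.82 CPM. Tcf7, which encodes TCF1, was at 912 to 1539 CPM in unstimulated and 289 to 469 CPM in stimulated cells. The 4-gene NK list moved with the groups, from 5.66 to 10.9 CPM in unstimulated cells with PGE2 up to 112 to 178 CPM in stimulated untreated cells, almost all of it Eomes, which CD8 T cells also express; Ncr1 was at 0 in all samples. The part of that list in the results was not tested.

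Expression is given in CPM after TMM scaling, which corrects for library size and composition, as mean ± SD over 4 replicates. Changes are log2 fold changes with their standard error (SE) from edgeR's quasi-likelihood test on the counts of the 8 samples compared, two-sided, with p adjusted over all genes tested by the Benjamini-Hochberg method. A gene passed the test at an adjusted p below 0.05. What cultures of the same number shared is not stated, so p-values measure the spread between these samples, which may be partly technical. Samples of the same number deviated together from their group means. A fit that holds the replicate number constant (the blocked fit) is therefore given beside a member's result where it changed the call. For stimulation with PGE2 and for the interaction the numbers paired less closely, and blocked values there are hints only. In bulk RNA, fewer cells of a kind and less RNA per cell cannot be told apart.

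Per kilobase of gene, the levels of the 38 genes spanned a wide range. By mean FPKM over the 16 samples the most abundant was Ddit4 at 308, before Atf4 at 159, Phgdh at 136, Shmt2 at 103 and Nars at 95.1. The lowest were Nupr1 at 0.468, Cth at 0.807 and Pycr1 at 1.06 FPKM. Counts were high for nearly all: the lowest count in any sample was 9 for Cth, 19 for Nupr1 and 25 for Chac1.

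Within the programme, most members followed the same order over the groups. In 27 of 38 the means rose from unstimulated cells with PGE2 to unstimulated untreated, then stimulated with PGE2, then stimulated untreated cells, an order that 24.8% of the 15096 genes in the fit of all samples had. The mean of the 38 genes' log2 CPM, each centred on its own mean over the samples, was -0.80, -0.78, -0.73 and -0.40 in replicates 1 to 4 of unstimulated cells with PGE2 and -0.36, -0.26, -0.29 and -0.03 in unstimulated untreated cells. In stimulated cells it was 0.39, 0.25, 0.32 and 0.26 with PGE2 and 0.59, 0.58, 0.59 and 0.66 without. None of the 4 groups overlapped on this mean, and replicate 4 was the highest of both unstimulated groups.

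**Figure D1:**
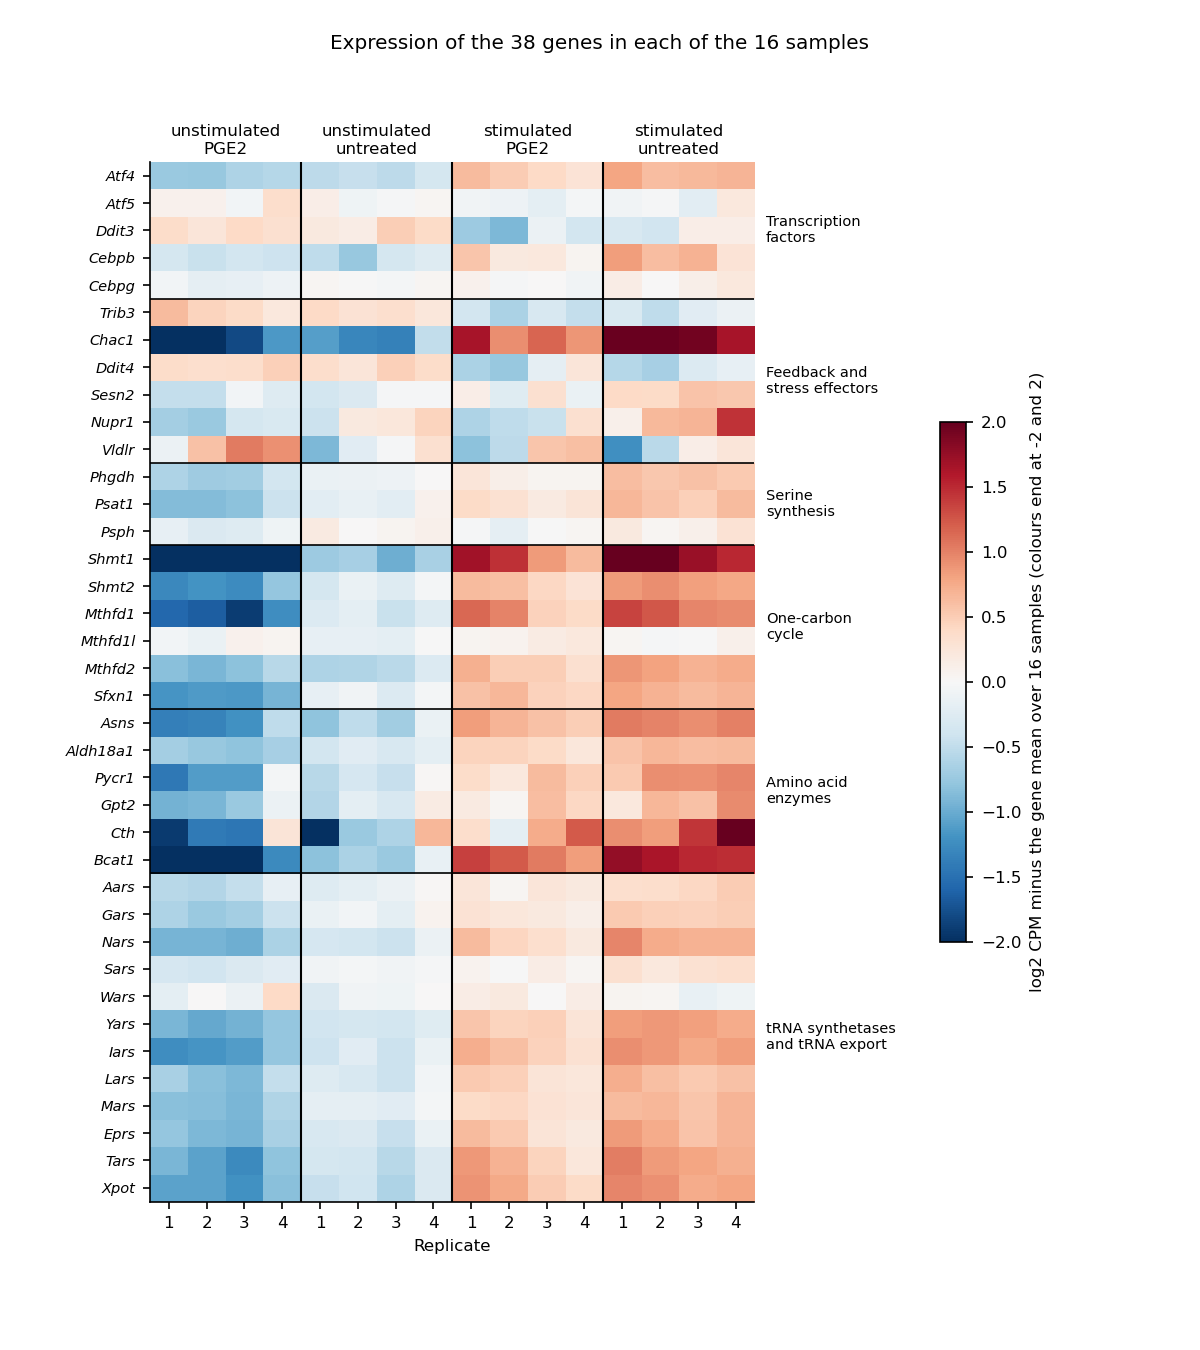
Heat map of the 38 genes (rows, ordered by role) in the 16 samples (columns, grouped and numbered by replicate); colour is the log2 CPM minus the gene's mean over all samples, blue below and red above, with colours ending at -2 and 2. Most rows pass from blue in unstimulated cells with PGE2 to red in stimulated untreated cells, while Ddit3, Trib3 and Ddit4 run the other way.

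Promoter sequence was searched for the element that ATF4 is known to bind with C/EBP partners, since these genes were grouped as its programme. The RefSeq windows on GRCm38.p6 held the 250 bases before the transcription start for 33 of the 38 genes. No window matched the symbols Cth, Lars, Mars, Nars and Wars. The C/EBP-ATF response element, searched as TGATGNAA on both strands, was in the window of 8 of 33 members, against 3.91% of 27025 genes. It is shown for most of these as 30 bases of sequence, in capitals the element, which reads TTNCATCA where it lies on the opposite strand.
Asns, chr6:7693214-7693243, minus strand: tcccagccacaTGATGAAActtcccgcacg
Pycr1, chr11:120643833-120643862, minus strand: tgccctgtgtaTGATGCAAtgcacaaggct
Chac1, chr2:119351038-119351067, plus strand: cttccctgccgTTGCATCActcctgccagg
Nupr1, chr7:126625562-126625591, minus strand: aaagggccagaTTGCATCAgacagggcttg
Vldlr, chr19:27216809-27216838, plus strand: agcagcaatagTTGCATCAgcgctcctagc
Gars, chr6:55037960-55037989, plus strand: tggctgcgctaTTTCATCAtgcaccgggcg
Tars, chr15:11399659-11399688, minus strand: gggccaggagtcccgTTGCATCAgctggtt
The full cAMP response element TGACGTCA was in none of the 33 windows and in 1.77% of all genes. The E-box CACGTG, the element of MYC and its partners, was in 5 of 33 (Aars, Aldh18a1, Iars, Nupr1 and Xpot) and in 6.86% of all genes. Aars and Nupr1 held both a C/EBP-ATF response element and an E-box, which did not overlap. Vldlr held its element upstream of 1 of its RefSeq starts. A match is a description of these letters only.

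**Figure D2:**
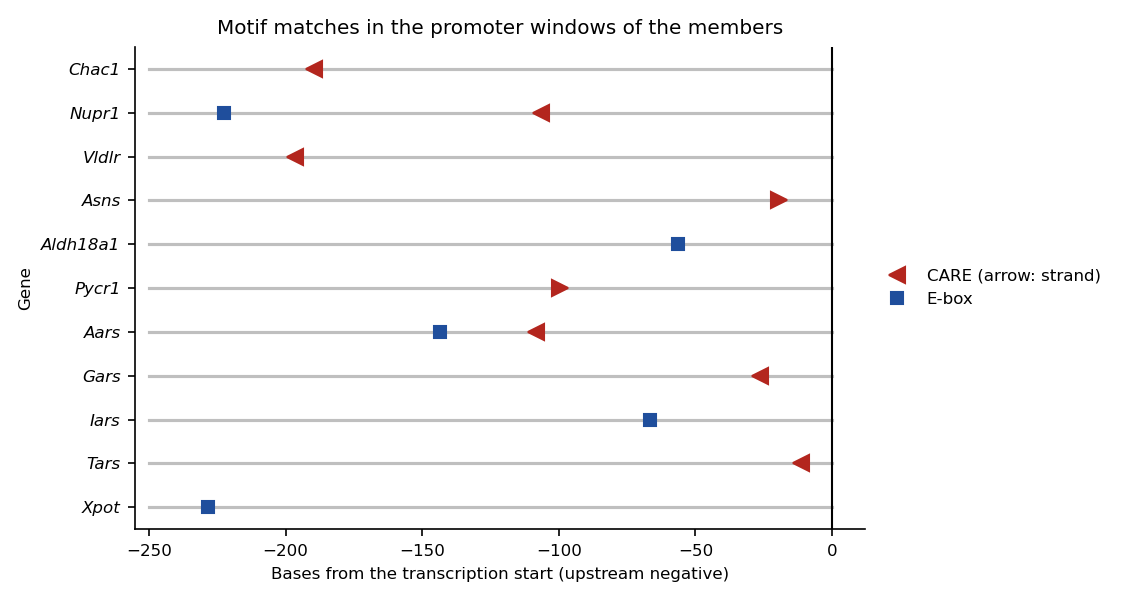
Position of each match in the upstream promoter windows of the 11 members with one, in bases from the RefSeq transcription start; arrowheads are C/EBP-ATF response elements (CARE) pointing along the strand on which they read TGATGNAA, and squares are E-boxes. The elements of Asns, Gars and Tars lie within 30 bases of the start and those of Chac1 and Vldlr near -200.

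In unstimulated cells, genes of all metabolic roles of the programme were lower with PGE2. Of the 38 members 20 passed the test, 19 lower and 1 higher (Vldlr), where 28.4% of all 14505 genes passed, 15.5% lower and 12.9% higher. The largest falls were in the folate cycle and branched-chain metabolism, with Shmt1 at -1.49, Bcat1 at -1.43 and Mthfd1 at -1.26 on the log2 scale. These 3 also changed at least 2-fold, where 3.38% of all genes passed with such a change. In 21 members every treated replicate lay below every untreated one, as in 16.8% of all genes, and the median log2 change was -0.47 over the members and 0.00 over all genes tested. The blocked fit passed 32 members, 28 lower and 4 higher (Trib3, Vldlr, Mthfd1l and Wars), where it passed 47.8% of all genes, 24.2% lower and 23.6% higher. Without replicate 4 of the PGE2 group, 26 members passed, all of them lower (the share of all genes in that fit was not counted).

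In stimulated cells fewer members passed, again with lower levels under PGE2. Of the 38 members 12 passed, all lower, where 9.84% of all 13922 genes passed, 3.8% lower and 6.04% higher: Phgdh and Psat1 of serine synthesis, Shmt2, Asns, Bcat1, the synthetases Gars, Nars, Sars, Yars and Mars, and the effectors Chac1 and Sesn2. None of these changed 2-fold, where 1.75% of all genes passed with such a change. The median log2 change was -0.28 over the members and -0.01 over all genes, and in 14 members the groups did not overlap, all of them lower, as in 8.32% of all genes. The blocked fit passed 33 members, 31 lower and 2 higher (Vldlr and Wars), where it passed 39.8% of all genes, 20.7% lower and 19.1% higher. Nupr1 passed there with a 2-fold change, at -1.03 on the log2 scale. Leaving out 1 library gives a smaller fit, and the share of all genes passing there was not counted. Each call lost without a block kept a negative estimate. The count without a block was 2, 1, 4 and 7 without untreated replicate 1, 2, 3 or 4. It was 15, 4, 3 and 2 without replicate 1, 2, 3 or 4 of the PGE2 group. With a block it was 28 to 34, with the same count for either library of a number. A library left without its partner holds no information on PGE2 in that fit, so these are not 8 separate checks. Phgdh passed in all 8 of the unblocked fits, and Yars in all but that without untreated replicate 2 (adjusted p = 0.0515). Mars passed in 4 of these 8 fits, Shmt2 in 3, Chac1, Sesn2, Psat1, Bcat1 and Gars in 2, Asns and Nars in 1 and Sars in 0.

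Lower in both states past the test were 9 members, namely Bcat1, Gars, Mars, Nars, Phgdh, Psat1, Sars, Shmt2 and Yars, where 2.65% of the 13571 genes tested in both were. With the block 26 members were, and 16.5% of those genes. The comparisons share no samples. Passing in 1 state only is not a difference between them, which the interaction in a fit of all 16 samples tested. It passed for Sfxn1 alone, where 0.749% of 15096 genes passed, with the fall smaller in stimulated cells; none of the members passed with a 2-fold difference, as 0.232% of all genes did. The blocked fit of all samples passed 3 members, where it passed 2.7% of all genes. Without replicate 4 of unstimulated cells with PGE2, Bcat1, Mars, Mthfd1 and Shmt2 also passed (5 members). Without replicate 4 of stimulated cells with PGE2, Mthfd1 and Shmt2 did (3 members). The share of all genes in these fits was not counted. The estimate was positive in 28 of 38 members and in 9268 of all 15096 genes, which means a smaller fall or a larger rise in stimulated cells. Its median was 0.12 over the members and 0.05 over all genes. With RLE factors it was positive in 25 members, as the signs of Cebpg, Mthfd2 and Wars turned.

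**Figure D3:**
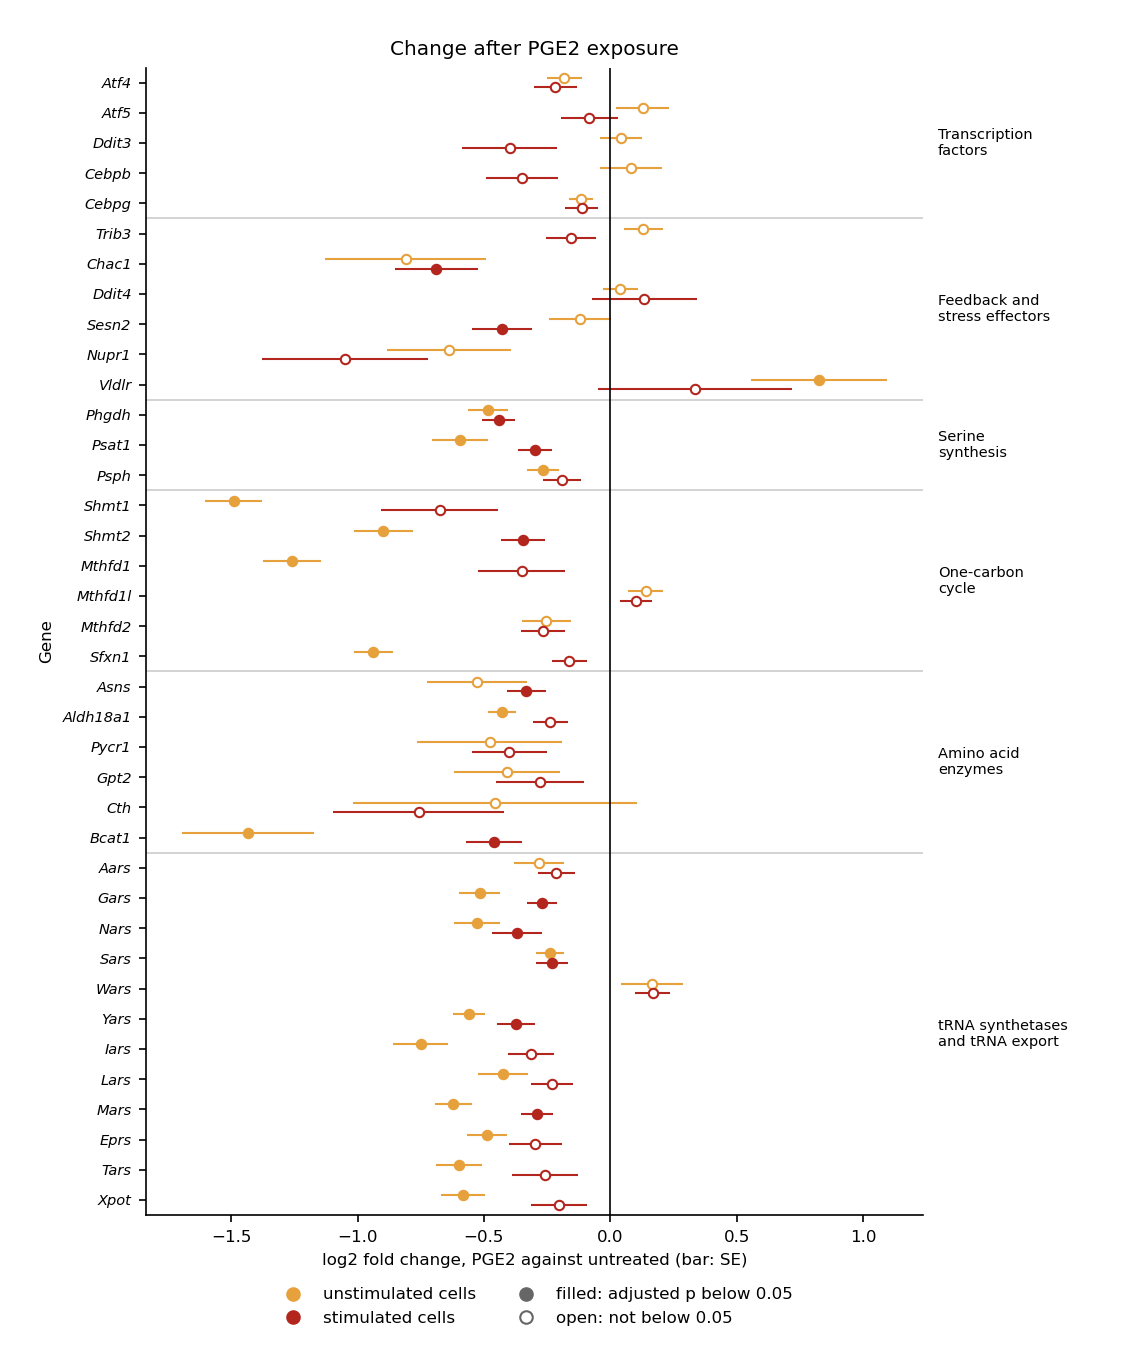
Log2 fold change after PGE2 exposure for each of the 38 genes in unstimulated (orange) and stimulated (red) cells, with SE as bars; filled points passed at an adjusted p below 0.05. Nearly all points of the serine, one-carbon, amino acid and tRNA genes lie left of 0, with those of Shmt1, Mthfd1 and Bcat1 farthest left in unstimulated cells.

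Stimulation raised most of the programme, and most of all the glutathione-degrading enzyme Chac1, Shmt1 and Bcat1. Without PGE2, 31 members passed, 28 higher and 3 lower (Ddit3, Trib3 and Ddit4), where 66.5% of 14205 genes passed, 31.7% higher and 34.8% lower. With PGE2, 31 members passed as well, the same 28 higher and the same 3 lower, where 64.2% of 14507 genes passed, 32.5% higher and 31.7% lower. With the block 33 members passed without PGE2, Nupr1 and Mthfd1l in addition, and 34 with PGE2, where 72.3% and 67.5% of all genes did. Past the test and at least 2-fold were 17 members without and 21 with PGE2, all higher, as were 23.2% and 22.1% of all genes in either direction. The median member change was 0.84 without and 1.11 with PGE2, beside -0.03 and 0.00 over all genes. Upper-quartile factors moved the median of all genes by -0.10 and -0.13, and the members' medians to 0.74 and 0.98. These comparisons share samples with those of PGE2.

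**Figure D4:**
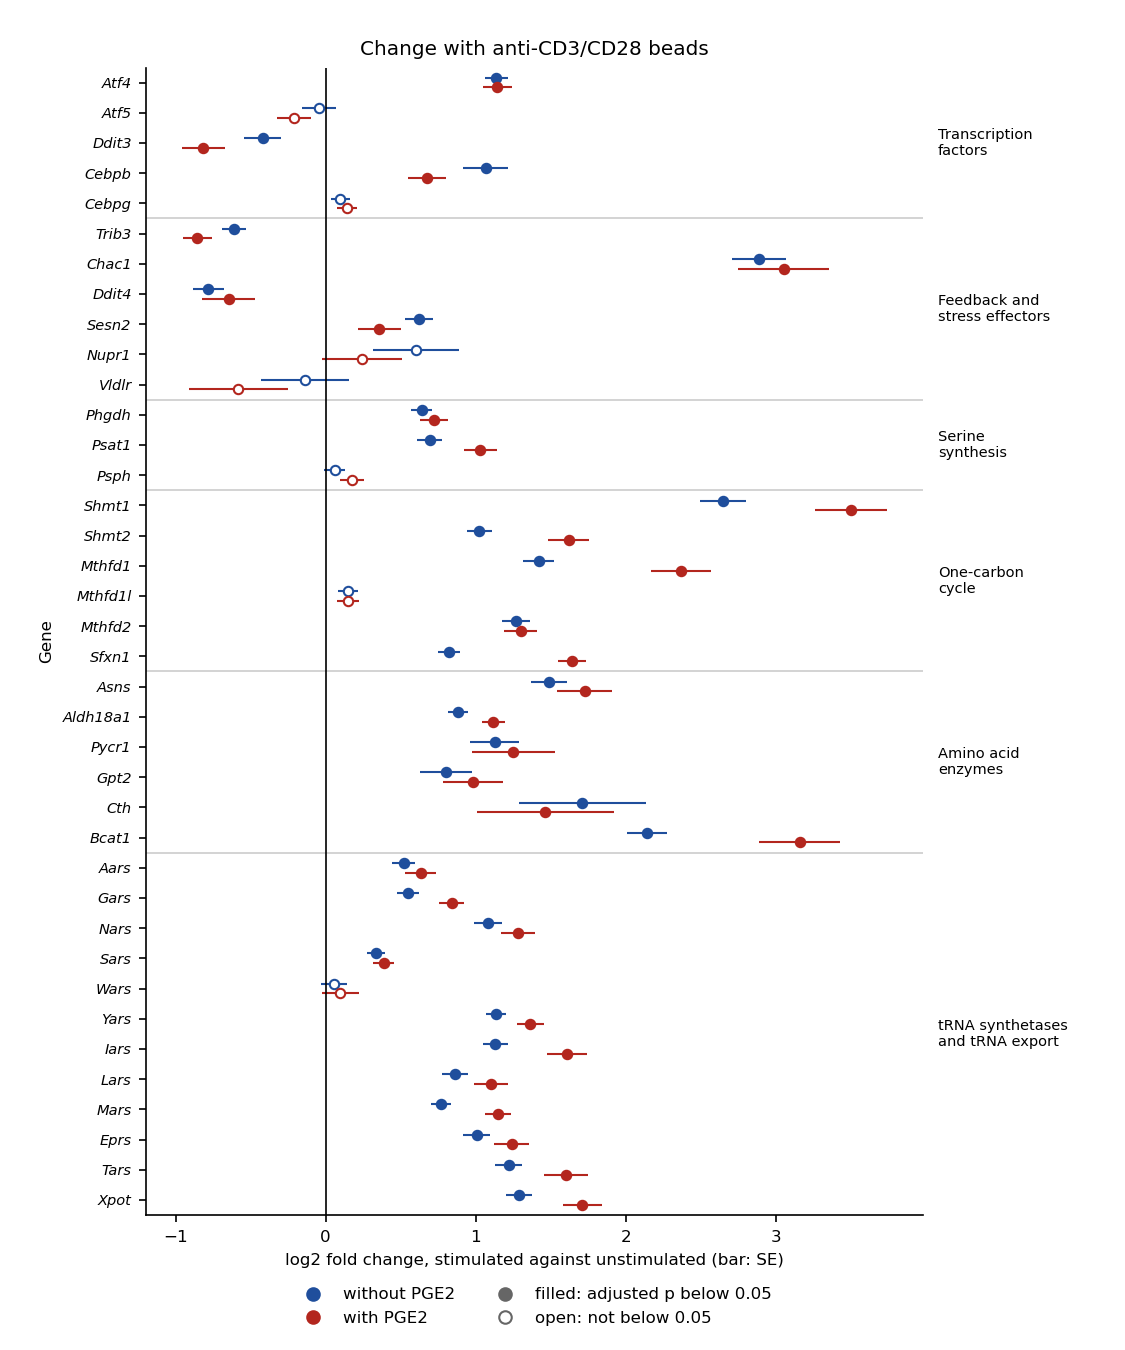
Log2 fold change with anti-CD3/CD28 beads for each of the 38 genes without (blue) and with PGE2 (red), with SE as bars; filled points passed at an adjusted p below 0.05. Shmt1, Chac1 and Bcat1 lie farthest right, and Ddit3, Trib3 and Ddit4 lie left of 0 in both.

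Serine synthesis begins with PHGDH, which oxidizes a glycolytic intermediate, goes on with the aminotransferase PSAT1 and ends with the phosphatase PSPH. In unstimulated cells Phgdh read 308, 311, 315 and 342 CPM without and 222, 208, 209 and 262 CPM with PGE2. In stimulated cells it read 518, 490.3, 509 and 489 CPM without and 401, 368, 352 and 350.4 CPM with PGE2. The treated replicates lay below all untreated ones in each state. The changes were -0.48 ± 0.08 (SE, adjusted p = 0.000931) in unstimulated cells and -0.44 ± 0.07 (SE, adjusted p = 0.00307) in stimulated cells (edgeR), and their difference was 0.06 ± 0.11 (SE).

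Psat1 showed the same order. It read 168, 176, 168 and 208 CPM in unstimulated untreated cells and 107, 107, 111 and 146 CPM with PGE2, with replicate 4 high in each. Stimulated samples read 309.7, 289.6, 273 and 304 CPM without and 254, 242, 221 and 234 CPM with PGE2, again without overlap. PGE2 changed it by -0.59 ± 0.11 (SE, adjusted p = 0.00216) in unstimulated and -0.30 ± 0.07 (SE, adjusted p = 0.0237) in stimulated cells. Stimulation raised Phgdh by 0.64 ± 0.07 (SE, adjusted p = 3.98e-06) and Psat1 by 0.69 ± 0.08 (SE, adjusted p = 1.1e-05) without PGE2 (edgeR).

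Psph changed less than the other two. Its mean was 48.7 ± 2.50 CPM in unstimulated untreated and 39.9 ± 2.56 CPM in unstimulated PGE2 samples, a fall of 0.26 ± 0.06 (SE, adjusted p = 0.00861) with no overlap. In stimulated cells the means were 51.2 ± 3.91 and 44.6 ± 3.00 CPM, with overlap (log2 change -0.19 ± 0.08 (SE, adjusted p = 0.145); blocked adjusted p = 0.00764). Neither stimulation comparison passed for Psph, apart from that with PGE2 in the blocked fit (adjusted p = 0.0404, higher, edgeR). On 10.4% of its exon bases Psph shares the opposite strand of Cct6a, which was at 321 CPM, and without stated strand use the reads there cannot be assigned.

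The one-carbon cycle held the largest PGE2 change of the 38 genes in unstimulated cells, that of Shmt1. SHMT1 in the cytosol and SHMT2 in mitochondria split serine into glycine and a folate-bound carbon. In unstimulated cells Shmt1 read 39.1, 40.8, 32.9 and 41.7 CPM without and 13.2, 13.1, 11.4 and 16.4 CPM with PGE2. The groups were far apart, at 0.356 of the untreated level (log2 change -1.49 ± 0.11 (SE, adjusted p = 6.53e-06), edgeR). The stimulated values were 301, 272, 215 and 184 CPM without and 208, 179.6, 118 and 100.4 CPM with PGE2. These groups overlapped, with replicates 1 and 2 higher than 3 and 4 in both, and each treated replicate lay below the untreated one of its number. The change was -0.67 ± 0.23 (SE, adjusted p = 0.0950) without and -0.71 ± 0.06 (SE, adjusted p = 2.07e-05) with the block. Smcr8, on the opposite strand over 4.74% of the exon bases of Shmt1, was at 62.3 CPM, and reads there cannot be assigned either.

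Shmt2 is among the most abundant members. It read 232, 270.2, 247 and 289 CPM in unstimulated untreated cells and 121, 129, 124 and 174 CPM with PGE2. In stimulated cells it read 537, 564, 521 and 507 CPM without and 459.5, 452, 396 and 359.8 CPM with PGE2. The groups did not overlap in either state. PGE2 changed it by -0.90 ± 0.12 (SE, adjusted p = 0.000226) in unstimulated and by -0.35 ± 0.09 (SE, adjusted p = 0.0358) in stimulated cells (edgeR), and the difference of these, 0.57 ± 0.15 (SE, adjusted p = 0.119), did not pass.

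MTHFD1 is the cytosolic enzyme that interconverts folate-bound carbon units. In unstimulated cells Mthfd1 read 87.5, 92.7, 77.8 and 88.96 CPM without and 35.5, 33.9, 28.6 and 44.98 CPM with PGE2, a clear separation with a change of -1.26 ± 0.12 (SE, adjusted p = 2.26e-05). With beads it read 271, 250.2, 209 and 205 CPM and 234, 211, 146 and 138 CPM, with overlap (log2 change -0.35 ± 0.17 (SE, adjusted p = 0.217); blocked adjusted p = 0.00123). The interaction was 0.92 ± 0.23 (SE, adjusted p = 0.0709) in the edgeR fit of all samples (blocked adjusted p = 0.0155).

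SFXN1 carries serine into mitochondria. Sfxn1 read 66.3, 70.95, 61.8 and 72.8 CPM in unstimulated untreated cells and 32.9, 33.8, 33.7 and 39.3 CPM with PGE2. After stimulation it read 129, 121, 115 and 119.8 CPM without and 112, 117, 102 and 99.6 CPM with PGE2. The unstimulated groups did not overlap and the stimulated groups did. The change was -0.94 ± 0.08 (SE, adjusted p = 1.17e-05) in unstimulated cells, and in stimulated cells the change was -0.16 ± 0.07 (SE, adjusted p = 0.173) (blocked adjusted p = 0.0144). Sfxn1 was the member whose PGE2 effect differed between the states, by 0.79 ± 0.11 (SE, adjusted p = 0.00336) (edgeR interaction), and it passed in all 16 fits that left out 1 library.

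The mitochondrial partners Mthfd2 and Mthfd1l behaved unlike each other. MTHFD2 oxidizes the carbon unit and MTHFD1L releases it as formate. Mthfd2 means were 113 ± 13.1 and 93.3 ± 10.4 CPM in unstimulated cells without and with PGE2, and 275 ± 16.6 and 227 ± 25.3 CPM in stimulated cells. Its PGE2 changes were -0.25 ± 0.10 (SE, adjusted p = 0.0735) (blocked adjusted p = 1.31e-05) and -0.27 ± 0.09 (SE, adjusted p = 0.0803) (blocked adjusted p = 0.00180), and stimulation raised it by 1.27 ± 0.09 (SE, adjusted p = 1.38e-07) without PGE2 (edgeR). Mthfd1l was nearly level, between 143 and 170.4 CPM over the group means, and passed in no comparison without a block. Its PGE2 estimates were positive in both states, at 0.14 ± 0.07 and 0.10 ± 0.06 (SE); with the block the edgeR adjusted p was 0.0114 in unstimulated cells.

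**Figure D5:**
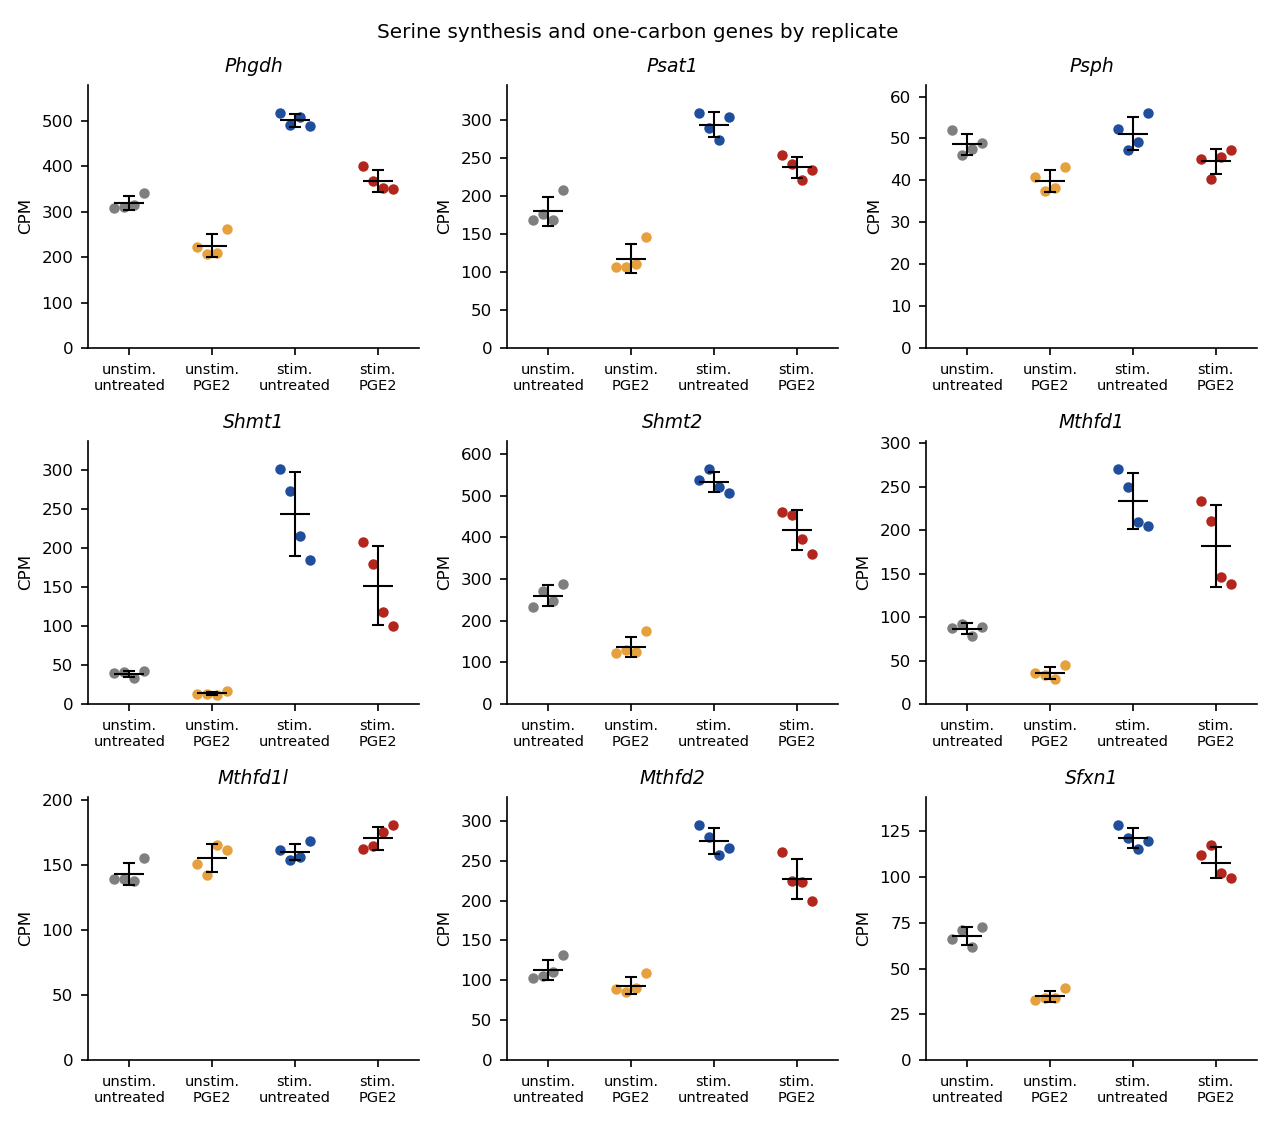
CPM of the 3 serine synthesis and 6 one-carbon genes in each group; points are the 4 replicates in order of their number, horizontal bars the mean and error bars the SD, with axes starting at 0. Shmt1 and Mthfd1 fall with PGE2 to means of 13.5 and 35.7 CPM in unstimulated cells, and Mthfd1l stays near the same level throughout.

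Stimulation raised 5 of these 6 genes in each comparison, all but Mthfd1l, where 31.7% and 32.5% of all genes rose. With the block all 6 rose, Mthfd1l with an edgeR adjusted p of 0.0261 and 0.0487. Shmt1 rose by 2.65 ± 0.15 (SE, adjusted p = 3.27e-08) without PGE2 and 3.50 ± 0.24 (SE, adjusted p = 1.55e-06) with it. Mthfd1 rose by 1.42 ± 0.10 (SE, adjusted p = 1.62e-07) and 2.37 ± 0.20 (SE, adjusted p = 3.5e-06). In every replicate the stimulated level was above all unstimulated ones for both genes. Shmt2 rose by 1.02 and 1.62 and Sfxn1 by 0.82 and 1.64 on the log2 scale.

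Among the other amino acid enzymes, asparagine synthetase and the branched-chain aminotransferase BCAT1 were lower with PGE2 in stimulated cells. Asns read 49.5, 60.8, 53.5 and 78.8 CPM in unstimulated untreated cells and 33.5, 34.3, 37.3 and 60.5 CPM with PGE2. These overlapped through replicate 4, high in both groups, and the change was -0.53 ± 0.20 (SE, adjusted p = 0.0682) (blocked adjusted p = 8.34e-07). In stimulated cells it read 178, 171, 164 and 173 CPM without and 154, 139, 129 and 121 CPM with PGE2. Here the groups were apart and Asns fell by 0.33 ± 0.08 (SE, adjusted p = 0.0279). Stimulation raised Asns by 1.49 ± 0.12 (SE, adjusted p = 3.85e-07) without and 1.73 ± 0.18 (SE, adjusted p = 1.52e-05) with PGE2 (edgeR). The element in the promoter window of Asns begins 23 bases before the start, and a relation to these changes was not tested.

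Bcat1 was lowest in unstimulated cells with PGE2. It read 29.1, 33.05, 30.6 and 46.02 CPM without and 7.97, 10.7, 10.5 and 21.04 CPM with PGE2 in unstimulated cells. The stimulated values were 172, 159, 145 and 142 CPM without and 131, 119, 105 and 91.2 CPM with PGE2. Replicate 4 was the highest of both unstimulated groups and the lowest of both stimulated ones, and treated and untreated samples did not overlap in either state. Bcat1 fell by 1.43 ± 0.26 (SE, adjusted p = 0.00189) in unstimulated and by 0.46 ± 0.11 (SE, adjusted p = 0.0303) in stimulated cells, and rose with stimulation by 2.14 ± 0.14 (SE, adjusted p = 5.85e-08) without and 3.16 ± 0.27 (SE, adjusted p = 3.95e-06) with PGE2 (edgeR).

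ALDH18A1 and PYCR1 make proline from glutamate. Aldh18a1 read 84.5, 93.1, 87.6 and 95.2 CPM in unstimulated untreated cells and 67.9, 64.6, 62.7 and 68.9 CPM with PGE2, without overlap, a change of -0.43 ± 0.06 (SE, adjusted p = 0.000245). In stimulated cells the means were 168 ± 5.08 and 142 ± 9.92 CPM, also without overlap, with a change of -0.24 ± 0.07 (SE, adjusted p = 0.0571) that missed the threshold (blocked adjusted p = 0.00454). Pycr1 was low, with means of 2.21 to 6.98 CPM over the groups, and its PGE2 estimates of -0.48 and -0.40 passed only in the blocked fit, with adjusted p of 0.0157 and 0.0185 (edgeR). Both genes rose with stimulation, Aldh18a1 by 0.88 and Pycr1 by 1.13 without PGE2.

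Cth, which releases cysteine from cystathionine, was among the lowest members. It read 0.397, 1.03, 1.13 and 2.74 CPM in unstimulated untreated and 0.457, 0.647, 0.633 and 2.06 CPM in unstimulated PGE2 samples. With beads it read 3.31, 3.08, 4.64 and 7.18 CPM without and 2.22, 1.51, 2.88 and 4.06 CPM with PGE2. Replicate 4 was the highest of all 4 groups. Stimulation raised Cth by 1.71 ± 0.42 (SE, adjusted p = 0.00310) without PGE2, with no overlap, and by 1.46 ± 0.46 (SE, adjusted p = 0.0158) with PGE2, with overlap, while the PGE2 estimates of -0.46 and -0.76 did not pass (blocked adjusted p = 0.00119 in stimulated cells). Gpt2, the mitochondrial alanine aminotransferase, rose with stimulation by 0.80 and 0.98, and its PGE2 estimates were -0.41 (blocked adjusted p = 0.00205) and -0.28 in edgeR.

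The tRNA synthetases, which load each amino acid onto its tRNA, mostly fell with PGE2 and rose with stimulation. Of these 11 genes and Xpot, 10 were lower with PGE2 in unstimulated cells and 5 in stimulated cells, and 11 rose with stimulation in each comparison. Of all genes 15.5% and 3.8% were lower with PGE2, and 31.7% and 32.5% rose with stimulation without and with it. With the block 11 were lower with PGE2 in each state, where 24.2% and 20.7% of all genes were. The median log2 change of the 12 was -0.52 in unstimulated and -0.26 in stimulated cells. All 12 interaction estimates were positive, with a median of 0.21, as were 9268 of 15096 over all genes. With RLE factors that of Wars turned negative. None passed without the block, with which Mars passed (adjusted p = 0.0325, edgeR).

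Yars and Mars, the tyrosine and methionine enzymes, passed in both states. In unstimulated cells Yars read 80.3, 82.5, 81.4 and 89.1 CPM without and 55.7, 51.9, 54.4 and 61.1 CPM with PGE2, and in stimulated cells 188, 191, 184 and 175 CPM without and 154, 143, 146 and 125 CPM with PGE2. Mars read 115, 114, 110.5 and 125 CPM against 72.7, 71.6, 68.5 and 84.9 CPM with PGE2 in unstimulated cells, and 200.4, 205, 189 and 206 CPM against 169, 172, 158 and 154 CPM in stimulated cells. No treated replicate of either gene reached an untreated one. Yars changed by -0.56 ± 0.06 (SE, adjusted p = 9.38e-05) and -0.37 ± 0.07 (SE, adjusted p = 0.0124), and Mars by -0.62 ± 0.07 (SE, adjusted p = 0.000108) and -0.29 ± 0.06 (SE, adjusted p = 0.0213), in unstimulated and stimulated cells (edgeR). Mars and Ddit3 overlap on opposite strands and share 1.99% of the exon bases of Mars.

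Gars and Sars, for glycine and serine, had smaller estimates than Yars and Mars, a difference that was not tested. Gars read 242, 254, 230.4 and 278 CPM in unstimulated untreated cells and 172, 158, 165 and 196 CPM with PGE2, and 381, 366, 365 and 371 CPM and 325, 308, 304 and 287 CPM in stimulated cells. Sars read 269, 275, 269 and 277 CPM and 224, 216, 231 and 241 CPM in unstimulated cells, and 354, 328, 349.9 and 358 CPM and 298, 280.3, 312 and 289 CPM in stimulated cells. Again the groups did not overlap. Gars fell by 0.52 ± 0.08 (SE, adjusted p = 0.000648) and 0.27 ± 0.06 (SE, adjusted p = 0.0222) and Sars by 0.24 ± 0.06 (SE, adjusted p = 0.00883) and 0.23 ± 0.06 (SE, adjusted p = 0.0443) in unstimulated and stimulated cells (edgeR). Without replicate 2 of unstimulated cells with PGE2, the adjusted p of Sars was 0.0521. In stimulated cells the Sars call was lost on leaving out any of the 8 libraries, with adjusted p from 0.0708 to 0.118.

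Iars, Tars and Xpot had the largest falls of this role in unstimulated cells beside Mars. Iars, the isoleucine enzyme, read 126, 143, 124 and 152 CPM without and 70.4, 73.7, 77.2 and 97.8 CPM with PGE2. Tars, the threonine enzyme, read 118, 117, 103 and 124 CPM without and 80.2, 71.9, 62.5 and 86.1 CPM with PGE2. Xpot, which exports tRNA from the nucleus, read 103, 108, 93.00 and 116 CPM without and 67.7, 67.4, 61.3 and 79.5 CPM with PGE2. All 3 separated fully. Their changes were -0.75 ± 0.11 (SE, adjusted p = 0.000433), -0.60 ± 0.09 (SE, adjusted p = 0.000539) and -0.58 ± 0.09 (SE, adjusted p = 0.000497) in that order. In stimulated cells the estimates were -0.31, -0.26 and -0.20 and passed only in the blocked fit (adjusted p = 0.00154, 0.00475 and 0.0129, edgeR).

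Nars, Lars, Eprs and Aars carry asparagine, leucine, glutamate with proline, and alanine. In unstimulated cells their log2 changes with PGE2 were -0.53, -0.43, -0.49 and -0.28, of which that of Aars missed the threshold (edgeR adjusted p = 0.0545; blocked adjusted p = 1.19e-05). In stimulated cells Nars read 469.6, 400.4, 384 and 388 CPM without and 369, 321, 300.4 and 274 CPM with PGE2. The groups did not overlap and Nars fell by 0.37 ± 0.10 (SE, adjusted p = 0.0447). The estimates of Lars, Eprs and Aars were -0.23, -0.30 and -0.21 and passed only with the block (adjusted p = 0.00331, 0.00131 and 0.00661). Stimulation raised all 4, between 0.52 for Aars and 1.08 for Nars without PGE2.

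Wars, the tryptophan enzyme and an interferon-induced gene, had positive PGE2 estimates in both states, alone among the synthetases. Its means were 166 ± 13.99 and 183 ± 35.3 CPM in unstimulated cells without and with PGE2, and 173 ± 11.99 and 194 ± 11.1 CPM in stimulated cells. The groups overlapped in each comparison and none passed without a block. With the block the PGE2 estimates of 0.15 ± 0.05 and 0.17 ± 0.04 (SE) had an edgeR adjusted p of 0.0278 and 0.00786.

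None of the 5 transcription factors passed for PGE2 in either state without the block, with estimates from -0.18 to 0.13 in unstimulated and -0.40 to -0.08 in stimulated cells. The blocked fit passed 2 of them in unstimulated and 3 in stimulated cells, all lower, as were 24.2% and 20.7% of all genes. Atf4 read 252, 263, 252 and 284 CPM in unstimulated untreated cells and 217, 215, 235 and 245 CPM with PGE2. With beads the values were 629, 556, 568 and 582 CPM without and 565, 518, 478 and 436 CPM with PGE2. The treated samples lay below all untreated ones in unstimulated cells and overlapped them in stimulated cells. The PGE2 changes were -0.18 ± 0.07 (SE, adjusted p = 0.0732) (blocked adjusted p = 0.00107) and -0.22 ± 0.09 (SE, adjusted p = 0.135) (blocked adjusted p = 0.00948). Stimulation raised Atf4 by 1.14 ± 0.08 (SE, adjusted p = 7.64e-08) without and 1.14 ± 0.10 (SE, adjusted p = 3.93e-06) with PGE2 (edgeR), and no sample of a stimulated group fell to the unstimulated range. These are levels of mRNA, and ATF4 is known to be set largely by translation, which was not measured.

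Ddit3 encodes CHOP, a stress factor that ATF4 is known to induce, and was lower with stimulation. It read 33.5, 32.5, 40.9 and 37.95 CPM in unstimulated and 23.4, 22.3, 32.1 and 32.1 CPM in stimulated untreated cells. With PGE2 it read 37.8, 34.6, 38.6 and 36.3 CPM in unstimulated and 17.6, 15.6, 27.03 and 22.7 CPM in stimulated cells. Stimulated samples lay below the unstimulated ones in both, narrowly so without PGE2. Ddit3 fell by 0.42 ± 0.13 (SE, adjusted p = 0.0102) without and by 0.81 ± 0.15 (SE, adjusted p = 0.000561) with PGE2. Its PGE2 estimates were 0.04 ± 0.08 (SE, adjusted p = 0.758) and -0.40 ± 0.19 (SE, adjusted p = 0.205) (blocked adjusted p = 0.000604).

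C/EBPβ and C/EBPγ are known dimer partners of ATF4. Cebpb means were 6.80 ± 0.985 CPM in unstimulated and 14.4 ± 2.28 CPM in stimulated untreated cells, a rise of 1.07 ± 0.15 (SE, adjusted p = 3.78e-05). With PGE2 the rise was 0.68 ± 0.13 (SE, adjusted p = 0.000807), from 7.10 to 11.2 CPM (edgeR). On 20.7% of its exon bases Cebpb lies opposite Tmem189, which was at 63.9 CPM, several times its own level. Cebpg stayed between 72.7 and 86.4 CPM and Atf5 between 8.89 and 10.4 CPM over the group means, and neither passed in any pairwise comparison without a block. In the blocked fits Cebpg was lower with PGE2 in unstimulated cells (-0.12 ± 0.04 (SE, adjusted p = 0.0125)) and Cebpb in stimulated cells (-0.35 ± 0.07 (SE, adjusted p = 0.00377); edgeR). Atf5 lies opposite Nup62, which was at 135 CPM, over 4.11% of its exon bases.

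The feedback and stress effectors split. CHAC1 breaks down glutathione and is among the most inducible ATF4 targets known. Chac1 read 2.47, 2.16, 2.08 and 3.79 CPM in unstimulated untreated cells and 0.878, 1.04, 1.51 and 2.39 CPM with PGE2. In stimulated cells it read 20.9, 20.9, 20.3 and 16.6 CPM without and 16.7, 10.2, 11.9 and 9.82 CPM with PGE2. Replicate 4 without PGE2 lay just below replicate 1 with it, the single overlap of the stimulated groups. Stimulation raised Chac1 by 2.89 ± 0.18 (SE, adjusted p = 5.1e-08) without and 3.05 ± 0.30 (SE, adjusted p = 9.05e-06) with PGE2, the largest rise and the third largest of the 38. With PGE2 it fell by 0.69 ± 0.16 (SE, adjusted p = 0.0289) in stimulated cells, while the unstimulated estimate was -0.81 ± 0.32 (SE, adjusted p = 0.0810) (blocked adjusted p = 0.00172; edgeR).

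SESN2 senses leucine and restrains mTORC1, as DDIT4 does by another route. Sesn2 read 40.8, 40.2, 45.9 and 44.8 CPM in stimulated untreated and 33.7, 26.1, 38.5 and 28.3 CPM in stimulated PGE2 samples, apart but close, and fell by 0.43 ± 0.12 (SE, adjusted p = 0.0478). In unstimulated cells the means were 27.5 ± 3.38 and 24.9 ± 3.60 CPM, a change of -0.12 ± 0.12 (SE, adjusted p = 0.514). Stimulation raised Sesn2 by 0.62 ± 0.10 (SE, adjusted p = 8.07e-05) without PGE2. With PGE2 the rise of 0.36 ± 0.14 (SE, adjusted p = 0.0475) was at the edge, and the adjusted p was 0.0955 and 0.190 without replicate 1 or 3 of stimulated cells with PGE2 and 0.148, 0.128 and 0.0709 without replicate 1, 2 or 4 of unstimulated cells with PGE2 (edgeR).

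Trib3 and Ddit4, both known ATF4 targets, fell with stimulation. Trib3 encodes a pseudokinase that restrains ATF4 signalling, and read 96.5, 89.3, 92.2 and 85.6 CPM in unstimulated and 59.3, 51.2, 62.5 and 67.2 CPM in stimulated untreated cells. With PGE2 it read 114, 99.8, 95.1 and 84.7 CPM and 56.5, 46.98, 58.4 and 52.6 CPM. The ranges were apart in both, with changes of -0.61 ± 0.08 (SE, adjusted p = 2.18e-05) and -0.86 ± 0.10 (SE, adjusted p = 2.34e-05). Ddit4 read 695, 641, 755 and 699 CPM in unstimulated and 367, 343, 449 and 486 CPM in stimulated untreated cells, and with PGE2 700.3, 681, 692 and 756 CPM and 349.6, 322, 481 and 644 CPM. It fell by 0.78 ± 0.10 (SE, adjusted p = 2.48e-05) without and by 0.65 ± 0.18 (SE, adjusted p = 0.00801) with PGE2, again without overlap. Neither passed for PGE2, apart from Trib3 in the blocked fits (adjusted p = 0.0164, higher, in unstimulated and 0.0494, lower, in stimulated cells; edgeR).

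Vldlr, a lipoprotein receptor known to be induced through ATF4 in stressed cells, was the only member that passed the unblocked edgeR test as higher with PGE2. It read 8.60, 13.7, 15.6 and 20.04 CPM in unstimulated untreated cells and 14.7, 23.9, 32.7 and 30.02 CPM with PGE2. After stimulation it read 6.83, 10.98, 17.5 and 18.9 CPM and 9.04, 11.1, 23.4 and 24.2 CPM. The groups overlapped, but in all 8 pairs of the same number the treated sample was higher. The rise was 0.83 ± 0.27 (SE, adjusted p = 0.0400) in unstimulated cells (blocked adjusted p = 1.36e-07), and in stimulated cells the estimate was 0.33 ± 0.38 (SE, adjusted p = 0.595) (blocked adjusted p = 0.0106). With stimulation Vldlr passed only in the blocked fit with PGE2 (adjusted p = 0.00399, lower, edgeR). Without a block the PGE2 call in unstimulated cells was lost on leaving out any library but untreated replicate 4 or replicate 1 of the PGE2 group, with adjusted p from 0.0637 to 0.119. Nor did Vldlr pass for PGE2 in unstimulated cells with DESeq2 or in 1 fit of all 16 samples. Nupr1, a small stress-induced chromatin protein, was at 0.794 to 1.97 CPM over the group means, with PGE2 estimates of -0.64 ± 0.24 (SE, adjusted p = 0.0750) (blocked adjusted p = 0.0338) and -1.05 ± 0.33 (SE, adjusted p = 0.0722) (blocked adjusted p = 0.00201).

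Other genes of the same pathways were counted in the same fits. Of 12 further cytosolic synthetase and scaffold genes tested, 9 were lower with PGE2 in unstimulated and none in stimulated cells, with a median log2 change of -0.42 and -0.18, where 15.5% and 3.8% of all genes were lower. At an unadjusted p below 0.05 the count in stimulated cells was 5 by edgeR and 7 by DESeq2. DESeq2 passed 1 at an adjusted p below 0.05. The shares of all genes under these rules were not counted, so these counts cannot be set against them. In the blocked fit 11 passed, 10 of them lower, as were 20.7% of all genes. The largest fall was in Eef1e1, a scaffold protein of the synthetase complex, from 31.6 ± 3.30 to 15.81 ± 0.484 CPM in unstimulated cells (log2 change -0.98 ± 0.08 (SE), adjusted p = 1.17e-05, edgeR). Of 17 mitochondrial synthetases, 8 were lower and 1 higher in unstimulated cells, where 15.5% and 12.9% of all genes were, led by Ears2 (-0.98) and Fars2 (0.25). In stimulated cells Rars2 alone passed, at -0.40, where 9.84% of all genes did. With the block 6 were lower and 1 higher, where 20.7% and 19.1% of all genes were.

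Of 20 further folate and one-carbon genes tested in unstimulated cells, 8 were lower and 1 higher with PGE2, where 15.5% and 12.9% of all genes were. The largest fall was in Slc19a1, the reduced folate carrier, from 39.7 ± 2.02 to 14.3 ± 3.43 CPM (log2 change -1.45 ± 0.14 (SE), adjusted p = 2.71e-05, edgeR). In stimulated cells 1 of 21 passed, Ahcy at -0.35, which clears the product of methylation reactions, where 9.84% of all genes did. With the block 8 of the 21 were lower and 4 higher, where 20.7% and 19.1% of all genes were. The PGE2 effect on Slc19a1 differed between the states by 1.22 ± 0.25 (adjusted p = 0.0316, edgeR interaction). Of the further serine, proline, glutamine and branched-chain genes, 3 of 18 were higher and 5 lower in unstimulated cells. Of all genes 12.9% and 15.5% were. Glutaminase Gls2 rose most (1.51 ± 0.36) and the proline-degrading Prodh fell most (-0.65 ± 0.17). Glud1 was the 1 of 17 that passed in stimulated cells (0.43 ± 0.07), where 9.84% of all genes did. With the block 4 of the 17 were higher and 4 lower, where 19.1% and 20.7% of all genes were.

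Other ATF4 targets went both ways in unstimulated cells, where 4 of 18 were higher and 4 lower with PGE2 (7 and 8 with the block), with a median of 0.02. Of all genes 12.9% were higher and 15.5% lower there, and 23.6% and 24.2% with the block. Jdp2 rose by 1.00 ± 0.13 and the leucine transporter Slc7a5 changed by -1.18 ± 0.12, from 172 ± 11.3 to 74.8 ± 14.5 CPM. In stimulated cells 1 of 19 was higher, Klhl24 (1.11 ± 0.20), and 2 lower, led by Slc7a3 (-0.62 ± 0.17). Of all genes 6.04% were higher and 3.8% lower there. In these cells 14 of 19 estimates were negative, with a median of -0.18, where 7079 of all 13922 genes were negative. The blocked fit passed 3 higher and 9 lower, where it passed 19.1% and 20.7% of all genes. Of 10 kinases, phosphatases and partners upstream of ATF4, Eif2ak3, which encodes the eIF2 kinase PERK, was higher with PGE2 in both states. It rose from 107 ± 3.82 to 187 ± 10.5 CPM in unstimulated cells (0.82 ± 0.06, adjusted p = 4.74e-06) and from 29.03 ± 5.46 to 53.04 ± 11.95 CPM in stimulated cells (0.88 ± 0.18, adjusted p = 0.0134, edgeR). The largest fall was in Eif2s1, the eIF2 alpha subunit, at -0.70 ± 0.08 in unstimulated cells. Of 16 chaperones and sensors of the endoplasmic reticulum, 8 were lower and 3 higher in unstimulated cells, where 15.5% and 12.9% of all genes were. In stimulated cells 1 was lower and 1 higher, where 3.8% and 6.04% of all genes were. With the block 8 were lower and 1 higher in stimulated cells, where 20.7% and 19.1% of all genes were. Among those past the test without the block, Edem1 was the largest rise (0.66 ± 0.07 and 0.63 ± 0.10) and Sdf2l1 the largest fall (-0.67 ± 0.09 and -0.38 ± 0.08).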

How the data were processed

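RNA-seq counts of 16 samples were analysed. The authors aligned reads to GRCm38 with HISAT2 2.0.5, made the deposited counts per gene with featureCounts 1.5.0-p3 and tested them with DESeq2 1.20.0; the deposited FPKM values are those counts scaled by the authors to gene length and library. Strand use in counting is not given in the sources used here.

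Here counts were tested with edgeR 4.0.16 in R 4.3.3: genes passing filterByExpr with a minimum count of 10, TMM factors, glmQLFit and glmQLFTest, and Benjamini-Hochberg adjustment over all genes tested. Pairwise comparisons used 8 samples and the interaction all 16. The scripts were tested on simulated data. A 105-base second row named Ddit3, without counts, was left out. FPKM served only to rank levels between genes.

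Samples were grouped by the labels. Same-numbered samples correlated in their deviations from the group means at 0.190 to 0.423 for PGE2 in stimulated cells, 0.137 to 0.444 for PGE2 in unstimulated cells and 0.112 to 0.359 for stimulation without PGE2. In these comparisons all same-number pairs were over 0.1, so the numbers were taken as pairing their samples. The labels do not say what they share. Unlike numbers reached 0.2505 for PGE2 in stimulated cells, where 6 of 8 samples correlated best with their own number. Those over 0.1 there were all between replicates 1 and 2 or between 3 and 4. For PGE2 in unstimulated cells unlike numbers reached 0.1239 and for stimulation without PGE2 0.1252, with 8 of 8 samples best with their own number in each. Replicates of a group differed by more than counting noise.

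All members are named. Sample values and full statistics were given to members past the test for PGE2 or the interaction (the 10 smallest adjusted p where more passed) and to the 5 largest rises and 5 largest falls with stimulation; from other lists, only the largest rise and fall. Further sample values, among them those of Atf4, were added after the values were seen. The members and lists were chosen with earlier results of these data known. Alternatives were RLE and upper-quartile factors, no filter, DESeq2 1.42.0, a replicate block, 1 fit of all samples, a 2-fold minimum and leaving out each library; leaving out libraries with the block was added after seeing the data. Promoters came from RefSeq, GRCm38.p6. The sequence of 1 element and the values of 1 folate gene are not reported here.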

Additional observations from a re-analysis of the deposited data

Results flagged for a closer look

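In 6 of 152 groups of 4 replicates 1 sample lay far from the other 3 by Dixon's criterion, where chance alone gives about 7.6, or 1 in 20. Replicate 4 of unstimulated cells with PGE2 was the high sample for Psat1 at 145.8 CPM, Sfxn1 at 39.3 CPM and Nars at 153 CPM. Replicate 4 of unstimulated untreated cells was high for Mthfd1l at 155 CPM. In stimulated untreated cells replicate 4 was low for Chac1 at 16.6 CPM and replicate 1 was low for Pycr1 at 5.61 CPM. The PGE2 effect on Sfxn1 differed between stimulated and unstimulated cells by 0.79 on the log2 scale in the interaction test.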

How the results depend on the processing

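No member reversed its direction past the test under any alternative. Replicate block and pairing: with the block, 33 members passed for PGE2 in stimulated cells (12 without), 32 for PGE2 in unstimulated cells (20 without) and 3 for the interaction (Mars, Mthfd1 and Sfxn1), against 1. For stimulation with PGE2 and for the interaction the numbers did not meet the pairing rule, with same-number correlations from 0.0439, and blocked values there are hints only. Leaving out each library gave 1 to 15 members for PGE2 in stimulated cells without the block and 28 to 34 with it (34, 31, 28 and 31 in the order of replicates 1 to 4 left out, in either group), and 1 to 5 for the interaction. Requiring a 2-fold change left 0 members for PGE2 in stimulated cells, 3 in unstimulated cells, 17 of 31 for stimulation without PGE2 and 0 for the interaction. The interaction passed for 2 members without a filter and 2 by DESeq2 (Mthfd1 and Sfxn1). DESeq2 passed 18 and 21 members for PGE2 in stimulated and unstimulated cells, all lower. The share of all genes passed was not counted for DESeq2, without a filter or without a library. Interaction signs turned for Cebpg, Mthfd2 and Wars with RLE factors and for Mthfd2 with upper-quartile factors. With upper-quartile factors the signs of Psph and Wars (stimulation without PGE2) and of Wars (with PGE2) turned, none of them past the test; for stimulation with PGE2 Atf5 then passed as lower and Sesn2 no longer passed. The cause was not tested. Chac1, Cth, Pycr1 and Nupr1 had the lowest counts. For PGE2 in stimulated cells the largest SE were those of Vldlr (0.38), Cth (0.34), Nupr1 (0.33) and Shmt1 (0.23).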
